A study of Homo sapiens with 30 samples.

Results

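Ribosome biogenesis genes code for the proteins that make ribosomal RNA in the nucleolus and build it into ribosomal subunits. The 43 genes described here were chosen by name, and each was measured by the array probes that carry its gene name. There were 57 such probes, all of which passed the filter on dim probes, among 32099 probes of 24517 gene names tested and 58201 probes on the array. Gene expression was measured in BEAS-2B cells, an immortalized human bronchial epithelial cell line, that had been grown on inserts at the air-liquid interface. For the exposure 10 mg of whole birch pollen was dispersed into a chamber with pressured air and sank onto the cells. Part of this pollen was lost to the chamber, so the dose on the cells was lower. Mock cells had the same air and handling, and a mesh kept the pollen out. RNA was taken after 10 min and 55 min and after 2h25 min, 6h50 min and 24 h, with 3 arrays for each exposure and time and 30 arrays in all.

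Mock and pollen cells of a time are compared directly. The arrays of the groups also lie on different slides, as given beside the results that this touches. Each time is a separate set of cultures. The line is submerged until 24 h before exposure, carries no cilia or mucus, and stands for the airway as 1 immortalized cell line. RNA of a whole insert was measured, so that fewer cells of a type and less RNA per cell cannot be told apart. All of the epithelial markers KRT8, KRT18, KRT7, KRT5 and EGFR were well above background on 30 of 30 arrays. Of the markers of other cells, PECAM1 was above background on 0, MYH11 on 4, CD3E on 17 and VWF on 28 arrays, and the probes of PTPRC, CD14 and DES were above background on all 30. Between 44.7% and 59.3% of probes were well above background on an array, and no spot was saturated.

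Ribosome production begins with RNA polymerase I, which transcribes the ribosomal RNA precursor. Small nucleolar ribonucleoproteins then modify this precursor, the small subunit processome folds and cuts it, and separate sets of factors mature the small and the large subunit. These genes are known to be expressed together in growing cells, and MYC, a growth-related transcription factor, is known to act on many of them through the E-box CACGTG.

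That motif was looked for in the RefSeq promoters of the genes, which reach from 250 bases before to 50 bases after the transcription start (GRCh38.p14). A promoter was listed for 36 of the 43 genes and 17 of them, or 47.2%, held CACGTG. This motif is its own reverse complement, so 1 search covers both strands. The share was 37.5% in 56 other ribosome biogenesis genes, 11.5% in the 13221 tested genes with a promoter and 7.26% in all 35116 promoters. A match describes these letters and is not a bound site. The windows below are a selection from genes whose values are given further on. Other such genes, among them PNO1, UTP20 and NOL6, also held the motif and are not shown. Of the 17 genes with the motif 15 were higher with pollen at 6h50 min. The others, NOP10 and PNO1, were lower and are not shown. The windows are written in the direction of the gene, and capitals mark the motif.
GNL3, chr3:52686026-52686055, plus strand: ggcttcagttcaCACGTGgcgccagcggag
WDR43, chr2:28894658-28894687, plus strand: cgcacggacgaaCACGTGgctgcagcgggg
PES1, chr22:30591880-30591909, minus strand: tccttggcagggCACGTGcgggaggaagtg
DDX21, chr10:68956604-68956633, plus strand: ggccgggtgtccCACGTGgtccccggcgac
BYSL, chr6:41921515-41921544, plus strand: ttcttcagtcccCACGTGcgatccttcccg
LTV1, chr6:143843354-143843383, plus strand: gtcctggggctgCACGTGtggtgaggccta
NOP14, chr4:2963374-2963403, minus strand: tccgcggcccggCACGTGtcttagggtagc
NOC3L, chr10:94362903-94362932, minus strand: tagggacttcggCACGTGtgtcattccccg
FBL, chr19:39846356-39846385, minus strand: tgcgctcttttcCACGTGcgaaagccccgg
Only 250 bases before to 50 bases after a start were searched, so any match lies near a listed start. GNL3 and DDX21 each have another listed promoter, which lacks the motif, and the positions given are those in the promoter that holds it. The first base of the motif was base 7 of the transcript in GNL3 and FBL and base 4 in WDR43, and it lay 31 bases before the start in DDX21.

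Levels are given as log2 signal relative to the 75th percentile of each array, which is set to 0, and a gene with several probes is represented by its brightest probe. The brightest probes of all 43 genes were well above background on every array that carried them. The median level of the 43 genes on an array lay between 1.24 and 1.57 at 10 and 55 min and between 1.53 and 1.68 at 2h25 min. It was 1.92, 1.83 and 1.92 on the mock arrays and 1.99, 1.88 and 2.13 on the pollen arrays of 6h50 min. At 24 h it was 1.91, 1.89 and 1.81 in mock and 1.89, 1.80 and 1.74 in pollen. All arrays of 6h50 min and 24 h were thus above all earlier ones, while mock and pollen overlapped at each time. The arrays of 6h50 min fill 1 slide and those of 24 h lie on another, so for 6h50 min time and slide cannot be told apart. The 75th percentile itself was 578 to 1151 on the arrays of 6h50 min. It was 1055 to 1324 at 24 h and 1044 to 2111 at the earlier times.

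**Figure D1:**
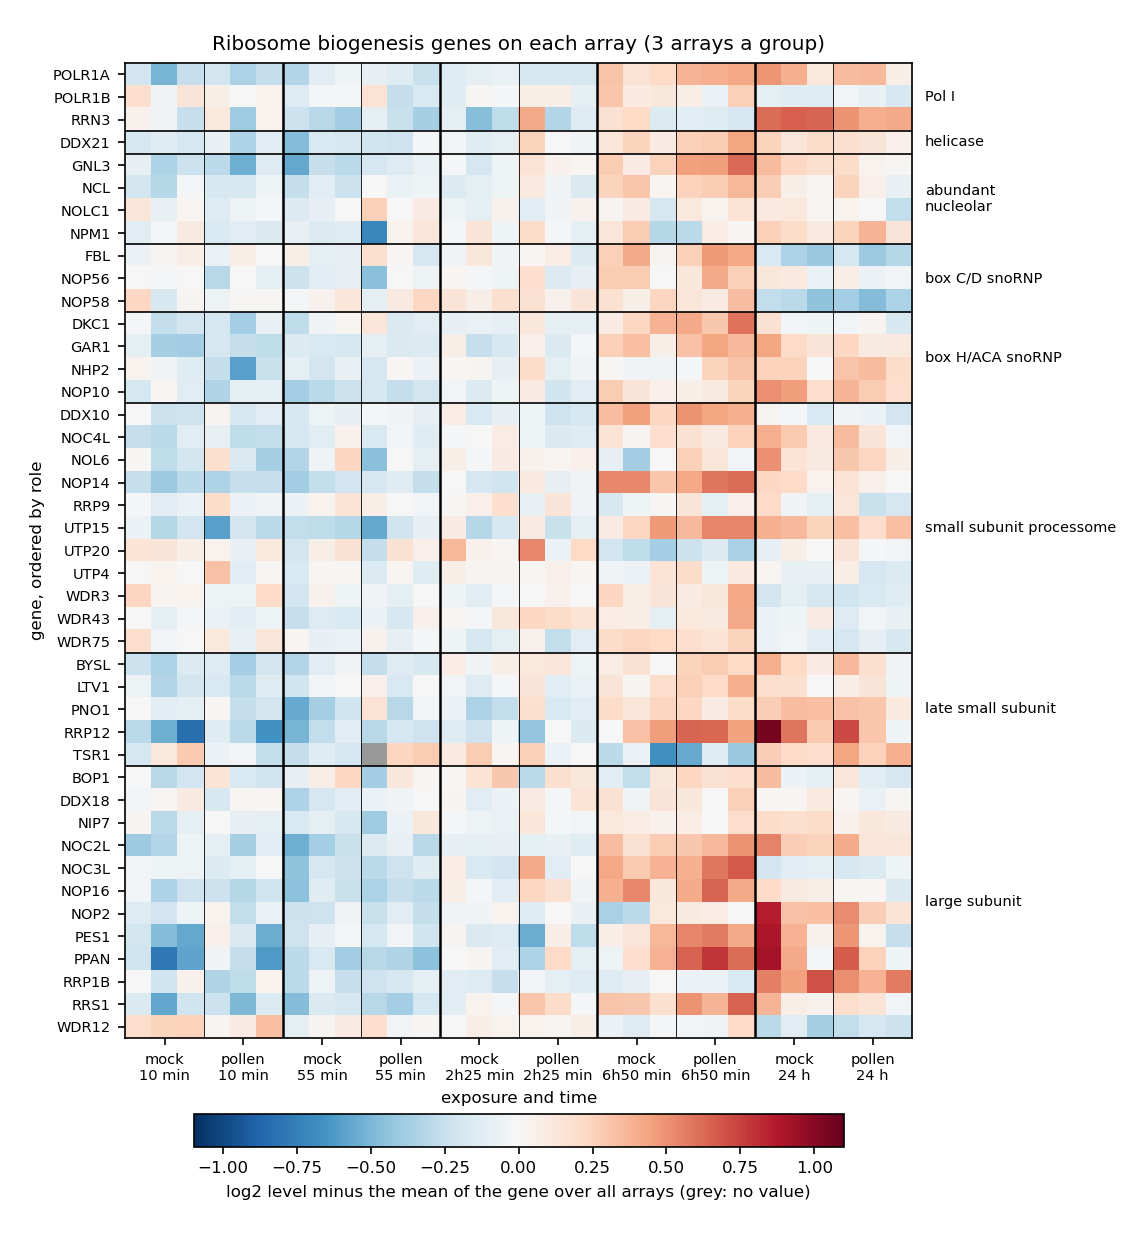
Level of each of the 43 genes (rows, by role) on each of the 30 arrays (columns, 3 for each exposure and time), as log2 level minus the mean of the gene over all arrays. Red is above and blue below that mean. Most genes are above their mean at 6h50 min in both exposures, whereas FBL and NOP58 are below it at 24 h, and the grey cell is TSR1 on an array that lacks its brightest probe.

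Pollen was compared with mock first, at each time. None of the 43 genes passed the test at any of the 5 times, where passing means an adjusted p under 0.05 over all probes in limma and a change of at least 1.1-fold. Few genes passed at all, with a share of all genes of 0% at 10 min, 0.00408% at 55 min and at 24 h, 0.0449% at 2h25 min and 0.0408% at 6h50 min. By the brightest probe of each gene the smallest adjusted p of the 43 genes in limma was 0.365, for GNL3 at 6h50 min. The dimmer probe of WDR3, given further on, had a smaller one at that time and did not pass.

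Their direction as a list nevertheless differed between times. The median log2 change (pollen minus mock) of the 43 genes was −0.01 at 10 min, 0.03 at 55 min and 0.03 at 2h25 min, and the medians of all genes tested lay between −0.03 and 0.00. At 6h50 min 35 of the 43 were higher with pollen, with a median of 0.12 against −0.00 for all genes, of which 11985 of 24517 were higher. At 24 h only 8 of the 43 were higher, with a median of −0.07 against −0.00 for all genes. The genes were chosen with the 6h50 min result known, so its count is a description.

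**Figure D2:**
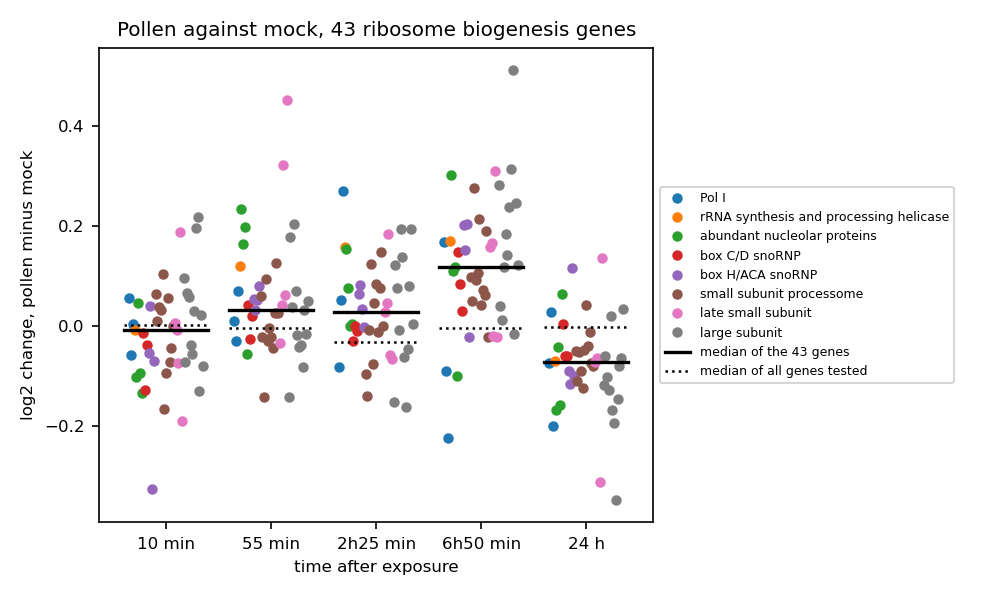
Log2 change, pollen minus mock, of each of the 43 genes at the 5 times, with 1 point per gene coloured by role. Solid lines mark the median of the 43 genes and dotted lines that of all genes tested, and the solid line is above the dotted one at 6h50 min (0.12) and below it at 24 h (−0.07).

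At 6h50 min the direction was shared by most roles. Of the 12 large subunit factors 11 were higher with pollen (median 0.16), of the 11 processome proteins 10 (median 0.09) and of the 4 box H/ACA proteins 3 (median 0.18). By the brightest probes the exception was RNA polymerase I, where POLR1A was higher but POLR1B and its initiation factor RRN3 were lower, at −0.09 and −0.22. The other probe of POLR1B was at 0.04, and those of RRN3 were at 0.13 and −0.04. Those of POLR1A were at 0.03 and 0.19. For 10 of the 43 genes all 3 pollen arrays were above all 3 mock arrays, and for 0 all were below. Over all genes these shares are 6.29% and 5.31%.

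GNL3 (nucleostemin, a nucleolar GTPase) had the smallest p by the brightest probes. Its level was 3.33, 3.14 and 3.30 on the mock arrays and 3.5, 3.51 and 3.68 on the pollen arrays. The groups did not overlap, and the log2 change was 0.30 (SE 0.11, n = 3 against 3, adjusted p = 0.365 in limma). PPAN, a large subunit factor, stood at −1.54, −1.31 and −1.11 in mock and −0.84, −0.70 and −0.87 in pollen. Here too the groups were apart, by 0.51 (SE 0.21, adjusted p = 0.509 in limma). WDR43, a processome protein, was at 1.16, 1.15 and 0.98 in mock and 1.19, 1.17 and 1.49 in pollen. The groups were narrowly apart, and a single pollen array carried most of the difference of 0.19 (SE 0.09).

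By the brightest probes these 3 genes were the only ones of the 43 with an unadjusted p under 0.05. Of all genes 7.15% had one, or 4.71% counting those that were higher. With the mean over the probes of a gene 5 of the 43 had one, against 7.16% of all genes. The other genes with groups apart were PES1 and BOP1, partners in a large subunit complex, RRS1, the helicase DDX21, POLR1A and the small subunit factors BYSL and LTV1. Their changes ran from 0.16 in BYSL to 0.32 in PES1. The partner of PES1 and BOP1, WDR12, was at 0.98, 0.91 and 1.03 in mock and 1.02, 1.01 and 1.26 in pollen, which overlap. NPM1 (nucleophosmin) went the other way, at 7.92, 8.07 and 7.48 in mock and 7.50, 7.87 and 7.8 in pollen, also with overlap.

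The arrays of 6h50 min share 1 slide, so the slide does not separate mock from pollen there. Mock replicates 1 and 2 each had a dim area on the array. These areas held 2 of the 10 spots of NOC3L, the only spot of UTP15 and no other spot of these genes. Without those areas the median of the 43 genes was 0.13. More genes passed under 2 other ways of processing the signal, and GNL3 was among them, after normexp background correction with quantile normalization (0.55, adjusted p = 0.0492 in limma) and in the table of the authors (0.52, adjusted p = 0.0484). Over all genes 1.39% of 17908 passed in the former, which used only probes on both array designs, and 1.22% of 24517 in the latter. The median of the 43 genes was 0.039 in the former, where TSR1 has no value, and 0 in the latter.

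At 24 h the 35 lower genes had small differences, and 0 of the 43 had an unadjusted p under 0.05, against 3.64% of all genes. Replicate numbers were taken as pairs at this time. In deviations from the group mean, however, pollen replicate 2 correlated by 0.30 with mock replicate 2 and by 0.34 with mock replicate 3. The median of the 43 genes was −0.08, −0.06 and −0.07 in the 3 pairs, with 9, 9 and 11 genes higher. All 3 pollen arrays were below all 3 mock arrays for 3 genes, RRN3, NOP16 and NIP7, and above them for 0. Over all genes 3.44% were apart in the lower and 5.54% in the higher direction. RRN3 was at 1.05, 1.1 and 1.08 in mock and 0.94, 0.84 and 0.86 in pollen, a change of −0.20 (SE 0.15). PES1 had the largest difference, −0.35 (SE 0.20), and its levels were 0.16, −0.35 and −0.68 in mock and −0.24, −0.69 and −0.98 in pollen. The groups overlapped, and within the pairs PES1 was lower with pollen in all 3, with differences of −0.40, −0.34 and −0.31 (adjusted p = 0.491 in limma with the replicate block). With that block 3 of the 43 genes had an unadjusted p under 0.05, against 8.19% of all genes.

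An interaction term compared the pollen effects of 6h50 min and 24 h. For 38 of the 43 genes the effect was lower at 24 h, with a median difference of −0.16 against 0.00 for all genes. This difference contains the changes of 6h50 min, which were known when the genes were chosen, so its count too is a description. None passed, as was so for 0% of all genes, and 6 had an unadjusted p under 0.05, against 4.89% of all genes. These were GNL3 (−0.47, SE 0.16, adjusted p = 0.797 in limma), PES1, PPAN, RRP12, NOP2 and WDR43, all lower at 24 h. Between 2h25 min and 6h50 min, 55 min and 2h25 min, and 10 min and 55 min the interaction passed for 0 of the 43 genes, with 0.00408%, 0% and 0% of all genes.

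**Figure D3:**
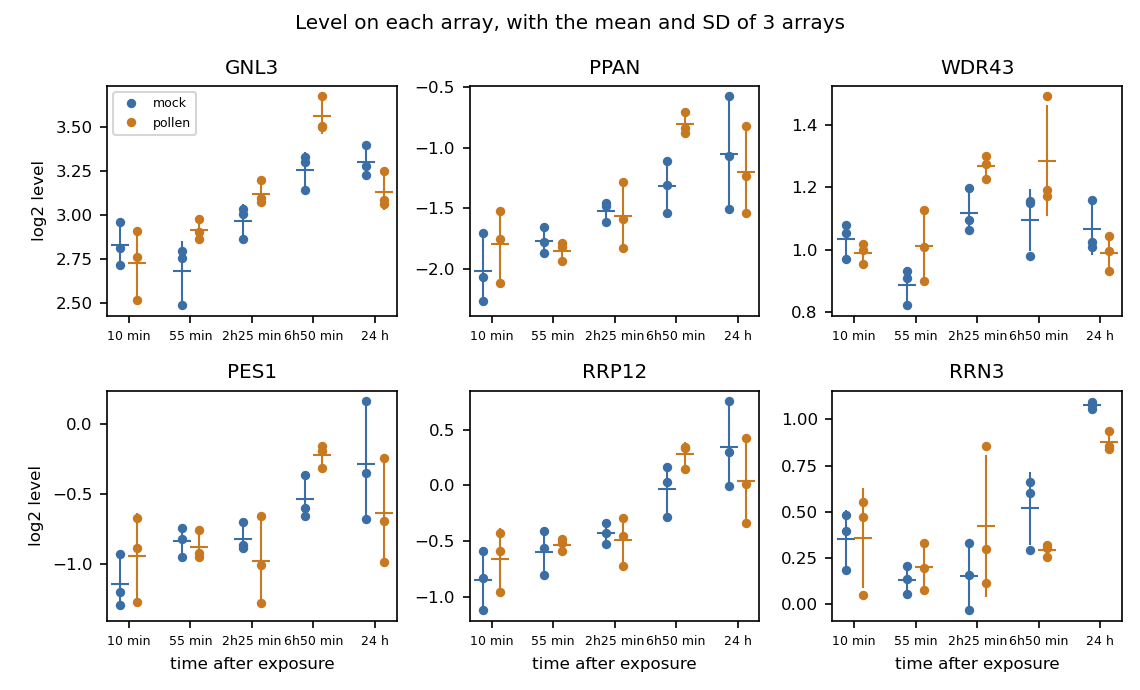
Log2 level of GNL3, PPAN, WDR43, PES1, RRP12 and RRN3 on each array (points), with the mean (dash) and SD (bar) of the 3 arrays of a group, mock in blue and pollen in orange. GNL3, PPAN, PES1 and, narrowly, WDR43 are apart at 6h50 min with pollen above mock, and RRN3 is apart at 24 h with pollen below mock.

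The earlier times are given next. At 10 min NHP2, a core protein of the box H/ACA particles that guide pseudouridylation, was at 5.71, 5.63 and 5.54 in mock and 5.40, 5.07 and 5.43 in pollen. It was the 1 gene of the 43 with groups apart (lower, as were 2.03% of all genes, with 3.75% higher) and with an unadjusted p under 0.05 (1.85% of all genes), and its change was −0.33 (SE 0.11). The smallest p after it belonged to TSR1 (−0.19) and RRP1B (−0.13).

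At 55 min 5 of the 43 genes had groups apart, all higher with pollen, against 6.11% of all genes and 4.81% in the lower direction, and 4 had an unadjusted p under 0.05, against 5.2%. These 5 were NCL (nucleolin), NOLC1, GNL3, DDX18 and TSR1. GNL3 was at 2.49, 2.80 and 2.76 in mock and 2.86, 2.90 and 2.98 in pollen, a change of 0.23 (SE 0.11). PNO1, which binds the maturing small subunit, was at −0.70, −0.51 and −0.36 in mock and 0.02, −0.44 and −0.17 in pollen, a change of 0.32 (SE 0.12) with overlap. Pollen replicate 1 of this time is an array of another design that lacks the brightest probe of TSR1, so that TSR1 rests on 2 pollen arrays. A single slide carries replicates 2 and 3 of both exposures, and there the median of the 43 genes was 0.01.

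At 2h25 min 0 of the 43 genes had an unadjusted p under 0.05, against 2.99% of all genes. For WDR3, WDR43 and GNL3 pollen lay above mock on all arrays (2.85% of all genes) and for NOC4L and POLR1A below (3.85%). WDR43 was at 1.1, 1.06 and 1.2 in mock and 1.30, 1.28 and 1.23 in pollen, a change of 0.15 (SE 0.09). The smallest p went to RRN3 (0.27, SE 0.15), whose levels of 0.33, −0.03 and 0.16 in mock and 0.85, 0.12 and 0.30 in pollen overlapped.

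MYC itself, which is not among the 43 genes, had its largest difference at this time. Its mean level was 2.64 in mock and 3.71 in pollen, a change of 1.07 (SE 0.21, adjusted p = 0.0587 in limma), and the change was 0.08 at 6h50 min and −0.27 at 24 h. At 6h50 min the 17 genes with CACGTG had a median change of 0.16, with 15 higher, and the 19 with a promoter that lacks it had a median of 0.10, with 14 higher. At 24 h the medians were −0.07 and −0.06.

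The steps in time were compared next, within each exposure. In the steps to and from 6h50 min time and slide cannot be told apart, as described further on. From 2h25 to 6h50 min 13 of the 43 genes rose and 2 fell in mock cells, and 19 rose and 2 fell in pollen-exposed cells. Over all genes 10.7% rose and 22.8% fell in mock, and 11.5% rose and 20.6% fell with pollen. The median change of the 43 genes was 0.21 and 0.22, where the median of all genes was −0.16 and −0.12. Of the genes that passed, 14 passed in both exposures with the same direction, which is 14 of 15 in mock and 14 of 21 with pollen.

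Among the processome proteins NOP14 rose most in mock cells. Its level went from 2.53, 2.34 and 2.30 to 3.05, 3.05 and 2.82 in mock, and from 2.63, 2.43 and 2.48 to 2.95, 3.11 and 3.14 with pollen. Each later array was above each earlier one, by 0.58 (SE 0.09, adjusted p = 9.15e-05 in limma) and 0.55 (adjusted p = 0.000151). The bright probe of the helicase DDX10 rose by 0.40 in mock and 0.60 with pollen, and its dim probe, with an SE of 0.65, had changes of −1.20 and −1.13 that did not pass. UTP15 rose by 0.40 and 0.56 and WDR75 by 0.33 and 0.31. UTP20, another processome protein, fell by 0.43 and by 0.47. The mock changes of UTP15 and UTP20 kept their direction but not their call in 8 and 7 of 17 alternatives.

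Genes of other roles passed too. POLR1A, the largest subunit of RNA polymerase I, rose by 0.33 in mock and 0.58 with pollen. NCL, GNL3, DKC1 (dyskerin, the pseudouridine synthase) and its partner GAR1 rose in both exposures by 0.29 to 0.46. Among the large subunit factors NOC2L, NOC3L and NOP16 rose in both, by 0.35 to 0.48.

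A further 7 genes passed with pollen and not in mock. RRP12, a factor of small subunit export, went from −0.72, −0.29 and −0.45 to 0.35, 0.34 and 0.15 with pollen, a rise of 0.77 (SE 0.20, adjusted p = 0.00561 in limma), and its mock change was 0.40. PES1 and PPAN rose by 0.76 each with pollen and had mock changes of 0.28 and 0.20. FBL (fibrillarin, the methyltransferase of box C/D particles), LTV1, RRS1 and NOC4L were the others. PNO1 passed in mock only, with 0.42 against 0.21 with pollen. The difference between the exposures did not pass for any of these, by the interaction given above.

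**Figure D4:**
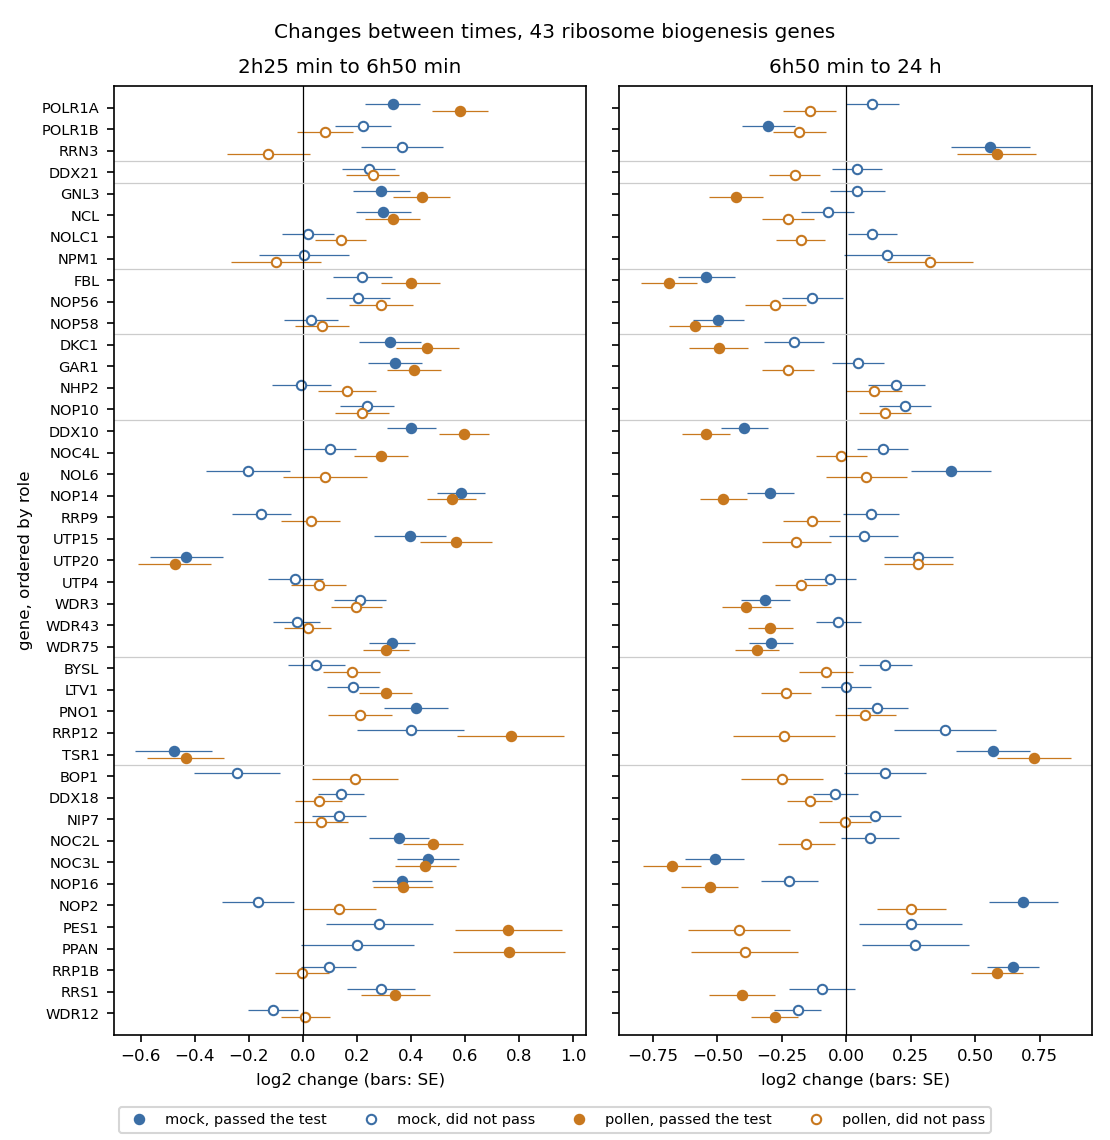
Log2 change of each of the 43 genes (rows, by role) from 2h25 to 6h50 min and from 6h50 min to 24 h, in mock (blue) and pollen (orange), with bars of 1 SE. Filled points passed the test. Most points of the left panel lie right of 0, and in the right panel FBL, NOP58, NOC3L and DDX10 lie far left in both exposures.

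From 6h50 min to 24 h the genes moved apart. In mock cells 5 rose and 8 fell, where 24.4% and 16.5% of all genes did, and in pollen-exposed cells 3 rose and 13 fell, where 22% and 14.7% did. The median of the 43 genes was 0.07 in mock and −0.20 with pollen, and that of all genes 0.13 and 0.12. In both exposures 3 genes rose and 7 fell, together 10 of 13 in mock and 10 of 16 with pollen. These comparisons share the arrays of 6h50 min with those from 2h25 min.

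The gene list holds 3 core proteins of the box C/D particles, which guide ribose methylation, and of these FBL and NOP58 fell. FBL went from 6.30, 6.46 and 6.08 to 5.88, 5.70 and 5.63 in mock, and from 6.30, 6.51 and 6.47 to 5.85, 5.64 and 5.73 with pollen. No later array reached an earlier one, and FBL fell by 0.54 (SE 0.11, adjusted p = 0.000524 in limma) and by 0.69 (adjusted p = 6.57e-05). NOP58 fell by 0.50 and by 0.59, while NOP56 had changes of −0.13 and −0.28 that did not pass.

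NOC3L fell by 0.51 in mock and by 0.68 with pollen, and DDX10, NOP14, WDR75 and WDR3 also fell in both exposures. In mock POLR1B fell as well, by 0.30. With pollen NOP16, DKC1, GNL3, RRS1, WDR43 and WDR12 fell, by between 0.28 and 0.53. For GNL3 the levels were 3.5, 3.51 and 3.68 at 6h50 min and 3.25, 3.08 and 3.06 at 24 h with pollen, and in mock they went from 3.33, 3.14 and 3.30 to 3.4, 3.28 and 3.23, a change of 0.04.

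RRP1B, a large subunit factor, rose by 0.65 in mock and 0.58 with pollen, from 0.81, 0.86 and 0.94 to 1.5, 1.40 and 1.65 in mock. RRN3 rose by 0.56 and 0.58. NOP2, a methyltransferase of the large subunit RNA, rose in mock from 0.63, 0.70 and 1.1 to 1.85, 1.31 and 1.32, by 0.69 (SE 0.13, adjusted p = 0.000397 in limma), and had a change of 0.25 with pollen that did not pass. NOL6 rose in mock by 0.41 (adjusted p = 0.0414 in limma), a call that was lost in 11 of 17 alternatives with values of 0.21 to 0.49, and its other probe had a change of 0.02.

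Some genes had probes that disagreed. The bright probe of TSR1, a GTPase-like small subunit factor, whose listed position spans only chr17:2225972-2226001 (hg19), fell to 6h50 min in both exposures and rose to 24 h by 0.57 and 0.73. Its other probe fell to 24 h, by 0.47 and by 0.63. The dimmer probe of WDR3 fell to 6h50 min by 1.83 in mock and by 1.25 with pollen and rose to 24 h by 1.57 and 0.91, opposite to the bright one. At 6h50 min it was 0.74 higher with pollen (adjusted p = 0.0842 in limma). The RRN3 probe of middle brightness fell to 24 h with pollen, by 0.39, where the bright one rose. For NOP56 the dimmer probe rose to 24 h in mock by 0.43 and had a change of −0.0049 with pollen. The dim probe of DDX10 had changes to 24 h of 0.81 and 0.44 that did not pass, against −0.40 and −0.54 in the bright one. A dimmer probe of POLR1A fell to 24 h in mock by 0.90, and one of NOP14 had a change of 0.20 in that step that did not pass. RRN3 and NPM1 have near-identical pseudogene copies, and which transcripts a probe read was not tested. Of the 43 genes 11 have several probes, and the directions given for TSR1, WDR3, RRN3, DDX10, NOP56, POLR1A and NOP14 are those of 1 probe. The same holds for POLR1B against mock at 6h50 min.

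All arrays of 6h50 min are on 1 slide and all of 24 h on another, which also holds replicate 3 of each exposure of 2h25 min. For the changes to and from 6h50 min, time and slide cannot be told apart. With the slide as a random block 3 genes in mock and 10 with pollen passed from 2h25 to 6h50 min, all higher, where 4.37% and 5.16% of all genes passed as higher. From 6h50 min to 24 h 8 passed in mock, where 21.8% of all genes did. Between 2h25 min and 24 h, compared after the arrays had been seen, 13 rose and 3 fell in mock (12.3% and 14.9% of all genes) and 7 rose and 3 fell with pollen (11.2% and 11.8%). Within the shared slide 1 gene rose in mock and 0 passed with pollen, where 2.26% and 0.049% of all genes passed.

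Earlier changes were small. From 10 to 55 min 0 of the 43 genes passed in mock (0.204% of all genes) and 0 with pollen (0.93%). From 55 min to 2h25 min 0 passed in mock (0.0163%) and 0 with pollen (0.232%), yet 42 and 33 of the 43 were higher, with medians of 0.11 and 0.10 against −0.03 and −0.02 for all genes. In mock 15 had groups apart, all higher, against 5.75% of all genes. GNL3 had the smallest p there, from 2.49, 2.80 and 2.76 to 3.03, 2.86 and 3.01, a change of 0.29 (SE 0.11). On the slide these groups have in common 31 genes in mock and 34 with pollen were higher.

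A second list of 64 tested ribosome biogenesis genes that are not among the 43, such as HEATR1 and NAT10, is given beside them. It too was chosen with earlier results of these data known. At 6h50 min 50 were higher with pollen, with a median of 0.09, and 0 passed (0.0408% of all genes). At 24 h 17 were higher, with a median of −0.05. From 2h25 to 6h50 min 15 rose and 7 fell in mock (10.7% and 22.8% of all genes). With pollen 22 rose and 6 fell (11.5% and 20.6%). From 6h50 min to 24 h 19 rose and 12 fell in mock (24.4% and 16.5% of all genes). With pollen 9 rose and 22 fell (22% and 14.7%).

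The ribosomal proteins themselves, the parts of the finished ribosome, form the other list. Of 75 tested cytosolic ribosomal proteins 0 rose and 5 fell from 2h25 to 6h50 min in mock (10.7% and 22.8% of all genes). With pollen 0 rose and 3 fell (11.5% and 20.6%). From 6h50 min to 24 h 33 rose and 0 fell in mock (24.4% and 16.5% of all genes). With pollen 38 rose and 0 fell (22% and 14.7%), and the medians were 0.35 in both. Against mock 51 of the 75 were higher with pollen at 6h50 min (median 0.05) and 71 at 24 h (median 0.08). At either time 0 passed (0.0408% and 0.00408% of all genes). These differences between lists were not tested.

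**Figure D5:**
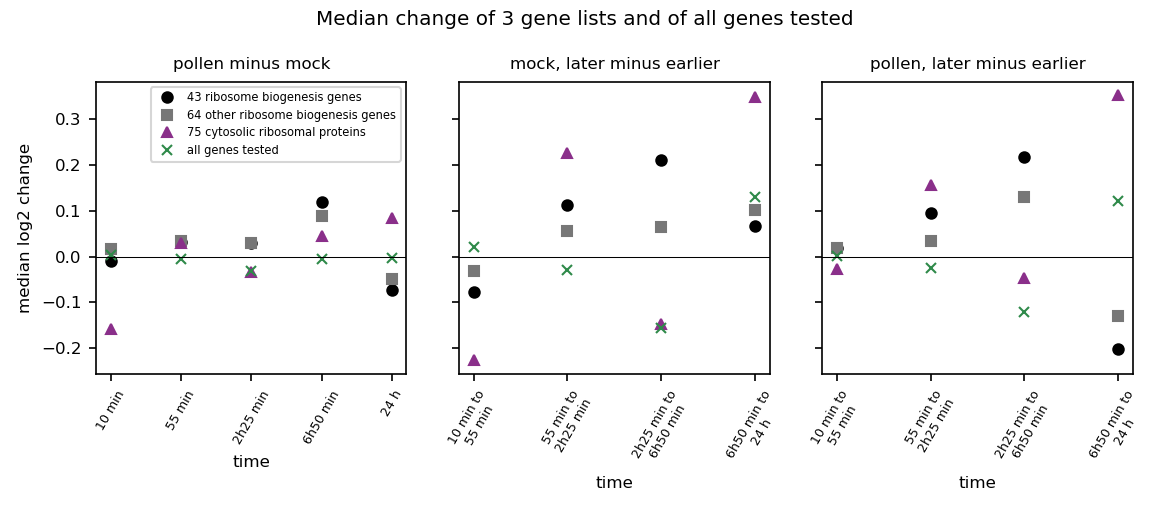
Median log2 change of the 43 genes, of 64 other ribosome biogenesis genes, of 75 cytosolic ribosomal proteins and of all 24517 genes tested, for pollen minus mock at each time (left) and for each step in time in mock (middle) and pollen (right). The medians of the 2 biogenesis lists are above 0 at 6h50 min and below 0 at 24 h in the left panel, and that of the ribosomal proteins is highest from 6h50 min to 24 h.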

How the data were processed

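Deposited values are one-colour Agilent array scans, with 1 file per sample, and the authors extracted them with Feature Extraction 11.0.1.1. The processed intensity (linear, background-subtracted and averaged over unflagged spots of a probe) was taken as log2 minus the 75th percentile of the array over the 33873 probes found on both array designs. A probe was tested where some group had it well above background on each of its 3 arrays, with limma 3.58.1 in R 4.3.3 (lmFit and eBayes, 10 group means, 30 arrays, 20 residual degrees of freedom), with Benjamini-Hochberg adjustment over all probes. Passing means an adjusted p under 0.05 and at least 1.1-fold, and the adjusted p alone for interactions. The deposited table of log2 values was an alternative. Its columns had medians of 5.77 to 5.80. Before 24 h they ranked the spots almost as the mean signal without background subtraction did (Spearman correlation 0.99999). How the authors normalized the table was not tested. In it 6 columns, those of 24 h, matched another array of their group best.

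Groups follow the labels. The members, lists and tests were chosen with earlier results of these data known. Genes named with values are up to 5 that passed with the largest change in each direction, or the 3 with the smallest p where none passed, and a fixed set that stands for the roles. Genes named only for groups apart or for disagreeing probes were picked after their values were seen. Samples are described as repeats on different days, and the number of arrays limits the precision. Deviations from the group mean of samples with the same replicate number correlated by 0.44 to 0.47 at 10 min, 0.52 to 0.67 at 2h25 min and 0.30 to 0.75 at 24 h, where the numbers were taken as pairs, and by −0.08 to 0.41 at 55 min and −0.01 to 0.27 at 6h50 min. The fit was tested on simulated data. Alternatives covered scaling, background correction, the dim filter, array weights, slide, dim areas, the probe rule, the replicate block and leaving out each array. Both alternatives with quantile normalization used only the probes on both array designs, with 17908 genes tested and no value for TSR1. The table of the authors was fitted without the array of the other design.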

Additional observations from a re-analysis of the deposited data

How the results depend on the processing

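For pollen against mock, 0 of the 43 genes passed under every alternative run at 10 min, 55 min, 2h25 min and 24 h. At 6h50 min 2 passed after normexp with quantile normalization (GNL3 and NHP2) and 1 in the authors' table, where the median of the 43 genes was 0. That median lay between 0.08 and 0.16 when single arrays were left out. With the replicate block 0 of the 43 genes passed at any time, 10 at 6h50 min had an unadjusted p under 0.05 (12.2% of all genes), and the block changed no count of these genes that passed by over 1.5 times. With the dim areas also left out, an alternative chosen after seeing the data, these were 0 and 14 (10.9% of all genes).

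The 75th percentile over each array's own probes shifted the array of the other design, so that the median at 55 min was −0.38, PNO1 was at −0.091 and GNL3 at −0.18, and from 10 to 55 min with pollen NHP2 was at −0.13 and NOLC1 at −0.23. Under this scaling 1 and 2 genes passed in mock from 2h25 to 6h50 min and from 6h50 min to 24 h (13.6% and 21.5% of all genes). With pollen 3 and 3 passed (13.2% and 16.9% of all genes). From 2h25 min to 24 h 4 passed in mock and 0 with pollen (11.4% and 7.83% of all genes). The median at 24 h was −0.094 with it, −0.089 with array weights, −0.062 with quantile normalization, −0.065 with normexp, −0.080 as a mean over probes, and −0.12 to −0.028 without single arrays. TSR1 at 10 min was at 0.027 in the authors' table.

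Array weights let 2 genes pass in mock and 1 with pollen from 10 to 55 min, against 9.22% and 4.34% of all genes. From 55 min to 2h25 min 1 passed with pollen, against 1.75% of all genes. With the slide as a random block 3, 8 and 10 genes passed (mock to and from 6h50 min, pollen to 6h50 min), against 14.1%, 21.8% and 14% of all genes. Within 1 slide 1 passed in mock and 0 with pollen from 2h25 min to 24 h, against 2.26% and 0.049% of all genes. Without mock replicates 1 and 2 of 6h50 min, also chosen after seeing the data, 3 and 5 passed in mock (12.4% and 19.9% of all genes), with 1 mock array left that is assumed to vary like the other groups. Without a filter on dim probes 4 passed with pollen from 2h25 min to 24 h, against 16.7% of all genes. As a mean over probes 8 passed in mock from 6h50 min to 24 h, against 40.9% of all genes. With that mean DDX10 was at −0.40 and 0.21 in mock and at −0.27 with pollen to 6h50 min, WDR3 at 0.63 in mock and RRN3 at −0.012 with pollen to 24 h. Leaving out single arrays gave 6 to 13 genes from 2h25 to 6h50 min in mock (6 without mock replicate 2 of 2h25 min), 10 to 16 in mock from 2h25 min to 24 h (10 without that same array) and 3 to 9 with pollen (3 without pollen replicate 2 of 2h25 min or replicate 1 of 24 h, 6 without replicate 3 of 2h25 min or replicate 2 of 24 h). The brightest probe of each of the 43 genes was above background on every array that carried it. The cause of these shifts was not tested.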
